A study of Rattus norvegicus with 3 samples.

Results

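The interleukin-17 (IL-17) ligands and receptors were described in single-cell RNA of rat mandibular condyles. The members were 5 genes, Il17a, Il17b, Il17f, Il17ra and Il17rc, of 20896 gene names listed over 3 libraries. They were chosen by their measured levels in these same libraries, so their levels are given as a description. Each library listed 4 of the 5 members, and 3 of them (Il17b, Il17ra and Il17rc) had a row in every library. The rest of the family was looked for by name as well, and 10 of 12 family names had a row in at least 1 library.

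The tissue was cartilage and subchondral bone of wild-type SD rats, all given an AAV by injection into the temporomandibular joint. The sham group received Vector AAV without a bite change, the UAC group had a unilateral anterior crossbite (a dental appliance that loads the joint abnormally) with Vector AAV, and the UAC + miR-330 group had the crossbite with miR-330 AAV. The study's methods give 8 weeks of UAC, and 16 condyles from 8 rats were pooled into the 1 library of each group, so rats within a pool cannot be told apart and no difference between groups has a replicate check. UMIs (unique molecular identifiers, each marking 1 captured RNA molecule) numbered 77668015 (sham), 92629658 (UAC) and 97255383 (UAC + miR-330) in 15, 18 and 19 clusters that the authors had made in each library alone. The age of the rats was not given in the sources used here.

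Members of this family are secreted cytokines and the single-pass receptors that bind them. IL-17A and IL-17F come mainly from T cells and other lymphocytes, and both bind a receptor made of IL-17RA and IL-17RC, which recruits the adaptor Act1 (gene Traf3ip2) and turns on NF-κB, C/EBP proteins and chemokines that attract neutrophils. IL-17B binds IL-17RB and is known from cartilage and nerve tissue, while IL-17A is known in joints as an inflammatory cytokine that acts on chondrocytes, synovial fibroblasts and osteoclast formation.

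A level in CPM is the number of UMIs for 1 gene out of every 1000000 counted in that library or cluster, and it carries an exact Poisson 95% interval. These intervals, and the binomial ones given with shares and ratios, cover counting error only. Clusters were named from marker genes, so that "neutrophil-like" means that neutrophil markers led. The labels name chondrocytes and osteoclasts. A cluster with chondrocyte, osteogenic and fibroblast markers, called skeletal-marker here, stood in each library (sham cluster 12, UAC cluster 16 and UAC + miR-330 cluster 17) with 11.6%, 6.46% and 6.05% of the library's UMIs, and 15, 16 and 17 of 20 chondrocyte markers were enriched in it. Sham cluster 12 did not pass the naming rule, since its 10 leading genes held 1 endothelial marker (Cdh5) and 0 skeletal ones, so it stayed unnamed by that rule and is compared by number only. No cluster was led by osteoclast markers, whose listed genes (7, 8 and 7) summed to 239, 226 and 194 CPM over the whole libraries, with Acp5 the most abundant in each. A T/NK-like cluster was found with UAC (cluster 17) and with UAC + miR-330 (cluster 19), with 2.36% and 2.39% of UMIs, and none was found in the sham library.

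Among the ligands, Il17a (ENSRNOG00000012467), the T cell cytokine, had 148 UMIs in the UAC library, or 1.60 CPM (1.35 to 1.88). It had no row in the sham table and none in the UAC + miR-330 table, so no level, floor or fold is given there. The smallest listed row held 1 UMI in each table, and a count of 0 and a row left out for another reason cannot be told apart. Of 12187 genes with at least 100 UMIs in the UAC library, Il17a was the 1 gene without a row in the sham table, and also the 1 gene without a row in the UAC + miR-330 table. The next most abundant UAC genes without a row had 28 UMIs (against sham) and 50 UMIs (against UAC + miR-330).

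Of the 148 Il17a UMIs, 145 lay in the T/NK-like cluster 17, a share of 98.0% (94.2% to 99.6%). The other 3 lay in other clusters, and the skeletal-marker cluster held 0. In cluster 17 all 10 listed T markers and 4 of 8 NK markers were enriched, and Il17a stood among its 10 leading genes beside the granzyme genes Gzma and Gzmk and the chemokine Ccl5. Set against Cd3e, a chain of the T cell receptor complex, cluster 17 held 117 Il17a UMIs per 1000 Cd3e UMIs (98.8 to 138). Against Cd3d, Cd3e and Cd3g together it was 50.4 per 1000 (42.5 to 59.3), and only 35.5% of the Cd3g UMIs of this library lay in that cluster.

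RNA of T marker genes was present in all 3 libraries. Cd3e had 254 UMIs in sham, 1357 in UAC and 1103 in UAC + miR-330, of which 1238 and 966 were in the T/NK-like clusters of the last 2. In CPM, Cd3e stood at 3.27, 14.6 and 11.3 in the same order. The 10 listed markers of the T list summed to 85.1 CPM (sham), 121 CPM (UAC) and 120 CPM (UAC + miR-330) over all clusters, with Cd3g the most abundant in each and none at 0. These sums do not measure T cells alone, since the T/NK-like clusters held 6122 of 11200 UMIs in UAC and 6317 of 11701 in UAC + miR-330. In sham, 179 of the 254 Cd3e UMIs lay in B-like clusters, and 33.1% of the Cd3g UMIs lay in the unnamed cluster 13. Inside the T/NK-like clusters the sums were 2795 CPM in UAC and 2723 CPM in UAC + miR-330. Single T genes differed more than this sum, and in both directions. Log2 ratios of UAC + miR-330 over UAC in these clusters were -0.44 (-0.56 to -0.32) for Cd3e, -0.50 (-0.63 to -0.36) for Cd3g and -0.52 (-0.68 to -0.36) for Cd8a. Themis, also on the T list, was higher with UAC + miR-330. It had 337 UMIs in the T/NK-like cluster of UAC and 752 in that of UAC + miR-330. These clusters held 2190625 and 2320124 UMIs in all. The T/NK-like clusters differed in other RNA, since mast cell and basophil markers summed to 24.7 CPM (most abundant Kit, 1 of 7 at 0) in UAC and 1698 CPM (most abundant Cpa3, none at 0) in UAC + miR-330. The part of these differences in the absence of an Il17a row was not tested.

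To place Il17a among genes with the same distribution, the genes with at least 100 UAC UMIs and at least 90% of them in cluster 17 were listed, a rule made after the values were seen. There were 18, Il17a included, and the other 17 all had a row in both other libraries. In UAC cluster 17 these 17 had a median of 343 UMIs, and in UAC + miR-330 cluster 19 a median of 401. The lowest there was Klri2, an NK receptor gene, with 78 UMIs against 151 in UAC. In the sham library, over all clusters, they ranged from 4 (Klra22) to 1392 with a median of 81.0.

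**Figure D1:**
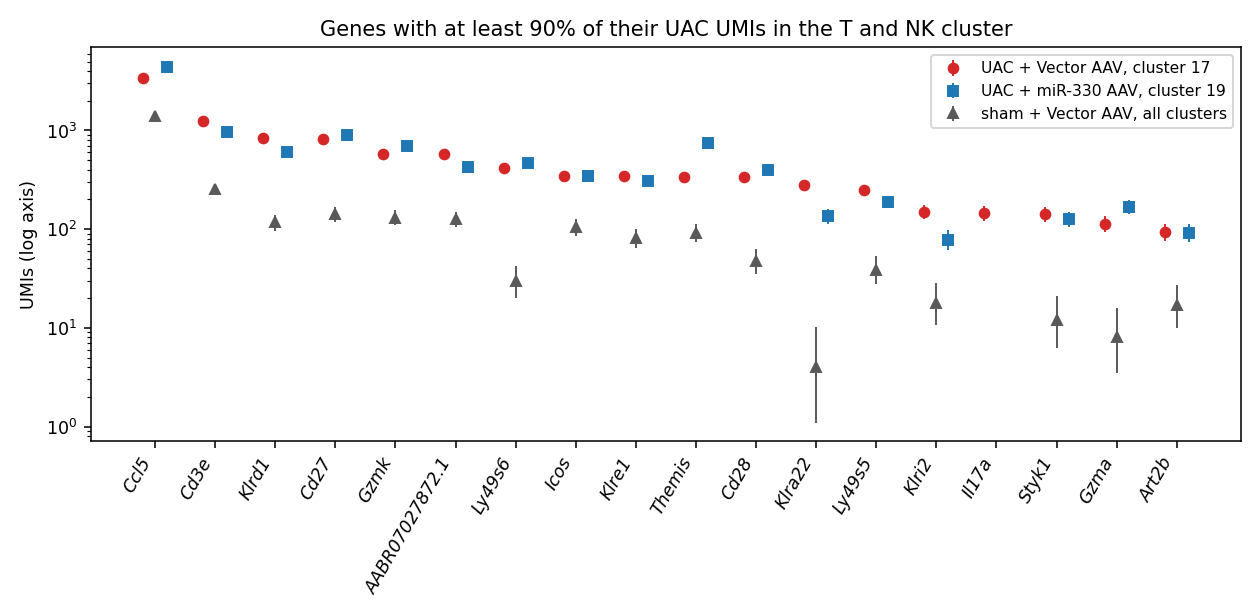
UMIs (log axis) of the 18 genes with at least 90% of their UAC UMIs in the T/NK-like cluster, in UAC cluster 17 (circles), UAC + miR-330 cluster 19 (squares) and all sham clusters (triangles), with exact Poisson 95% intervals. Il17a has a point at 145 UMIs in UAC and no row in the other libraries, while the other 17 genes have a point in each.

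Il17f (ENSRNOG00000012509), the closest relative of Il17a, had a single UMI (1) in sham and another (1) with UAC + miR-330, and no row in the UAC table. These UMIs lay in sham cluster 13 and UAC + miR-330 cluster 11, neither of them T/NK-like. No ratio is given for it. Il25, also called IL-17E, had 1, no row and 2 UMIs in the same order of libraries as above, and Il17c had no row in any table.

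Because Il17a and Il17f lie near each other on the chromosome, the windows around their starts are shown to let the pair be compared. Both come from RefSeq (GRCr8), reach from 250 bases before to 50 bases after the gene start, and are printed 5′ to 3′ on the gene's own strand. Il17a is chr9:30640594-30640893 on the + strand and Il17f is chr9:30697869-30698168 on the - strand. Capitals mark exact matches on either strand to any of 4 motifs, which do not overlap in these windows. The motifs were the TATA box TATAAA, the nuclear receptor core AGGTCA, the SOX core ACAAAG and the AP-1 site TGACTCA.
Il17a: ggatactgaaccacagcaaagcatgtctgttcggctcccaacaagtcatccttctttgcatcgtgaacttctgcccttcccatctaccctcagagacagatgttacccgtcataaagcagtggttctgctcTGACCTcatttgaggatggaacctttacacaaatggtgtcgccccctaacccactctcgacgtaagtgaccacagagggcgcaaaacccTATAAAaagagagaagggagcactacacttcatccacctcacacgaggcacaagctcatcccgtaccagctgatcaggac
Il17f: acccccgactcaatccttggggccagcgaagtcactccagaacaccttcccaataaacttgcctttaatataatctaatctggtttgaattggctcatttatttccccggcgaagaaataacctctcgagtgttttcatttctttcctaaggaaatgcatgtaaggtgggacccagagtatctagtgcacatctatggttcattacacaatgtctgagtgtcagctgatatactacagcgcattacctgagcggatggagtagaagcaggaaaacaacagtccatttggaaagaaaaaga
The Il17a window held TATAAA starting 30 bases before the gene start and the nuclear receptor core on the opposite strand (TGACCT) starting 119 bases before it. The Il17f window held none of these letters. Of 33469 promoters in the table, 14.2% held TATAAA or its reverse complement, 16.2% the nuclear receptor core, 18.8% the SOX core and 4.63% the AP-1 site. GC content was 50.7% in the Il17a window and 43.0% in the Il17f window.

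Il17b (ENSRNOG00000019695) is the ligand with the opposite distribution. It had 180 UMIs in sham, 39 in UAC and 96 in UAC + miR-330, or 2.32 CPM (1.99 to 2.68), 0.421 CPM (0.299 to 0.576) and 0.987 CPM (0.800 to 1.21) of the whole libraries. The skeletal-marker clusters held 175, 37 and 94 of these UMIs, shares of 97.2% (93.6% to 99.1%), 94.9% (82.7% to 99.4%) and 97.9% (92.7% to 99.7%). The T/NK-like clusters held 0 Il17b UMIs, where the floor of 3 UMIs is 1.37 CPM in UAC and 1.29 CPM in UAC + miR-330.

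Within the skeletal-marker clusters Il17b stood at 19.4 CPM (16.6 to 22.5) in sham, 6.19 CPM (4.36 to 8.53) in UAC and 16.0 CPM (12.9 to 19.5) in UAC + miR-330. The UAC cluster was the lowest and its interval lay apart from both others, while those of sham and UAC + miR-330 overlapped. The log2 ratio was -1.63 (-2.20 to -1.13) for UAC to sham and 1.36 (0.81 to 1.96) for UAC + miR-330 to UAC, and both comparisons share the UAC library. In the whole libraries the ratios were -2.45 (-3.00 to -1.95) and 1.22 (0.68 to 1.81).

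For scale, 5.52% of 11556 genes with at least 20 UMIs over both libraries were at or past 2-fold between the UAC and sham skeletal-marker clusters, and 6.8% of 11341 genes between those of UAC + miR-330 and UAC. Poisson intervals lay apart for 21.8% and 25% of the same genes. The median log2 ratio of all these genes was 0.15 and 0.01. Il17b was past 2-fold in both comparisons, but since it was chosen from these values nothing is read from that.

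Other skeletal genes moved between the clusters too. Per 1000 UMIs of Sox9, Acan and Comp (a transcription factor and matrix genes of cartilage) in the skeletal-marker cluster, Il17b stood at 2.26 (1.94 to 2.62) in sham, 0.802 (0.565 to 1.11) in UAC and 2.29 (1.85 to 2.80) in UAC + miR-330. Most of this reference was Comp (59401 of 77394 UMIs in sham), which had a log2 ratio of -0.39 from UAC to UAC + miR-330 while Sox9 had 0.70 and Acan 0.41. Per 1000 Sox9 UMIs alone Il17b stood at 54.3 (46.6 to 63.0), 19.6 (13.8 to 27.0) and 31.2 (25.2 to 38.1) in the same order, and per 1000 Acan UMIs at 11.8 (10.2 to 13.7), 4.21 (2.96 to 5.80) and 8.19 (6.62 to 10.0). UAC was lowest by each reference, and among these references the closeness of UAC + miR-330 to sham depended on Comp. In CPM of the clusters, without a reference gene, the intervals of sham and UAC + miR-330 overlapped, as given above. The 20 chondrocyte markers summed to 63477, 50528 and 65629 CPM in the 3 clusters, with Col2a1 the most abundant gene in each and 0, 1 and 1 of them at 0. The 7 listed endothelial markers summed to 78.6, 34.4 and 27.4 CPM, with Eng the most abundant and 0, 4 and 5 of them at 0. The part of such differences in the Il17b values was not tested.

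Il17d, a further ligand of the family, had 980 (sham), 400 (UAC) and 567 (UAC + miR-330) UMIs, of which 93.7%, 91.5% and 88.4% lay in the skeletal-marker clusters. Its level there was 102 CPM (95.3 to 109) in sham, 61.2 CPM (55.1 to 67.8) in UAC and 85.1 CPM (77.8 to 92.9) in UAC + miR-330. The UAC cluster was again the lowest and the 3 intervals lay apart, with log2 ratios of -0.73 (-0.91 to -0.56) and 0.48 (0.28 to 0.67). Intervals lay apart for 21.8% and 25% of all genes in the comparisons of these ratios. For UAC + miR-330 to sham that share was not computed. Over whole libraries the Il17d ratios were -1.55 (-1.72 to -1.38) and 0.43 (0.25 to 0.62), so it was past 2-fold lower in UAC than in sham there and inside 2-fold in the skeletal-marker clusters.

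**Figure D2:**
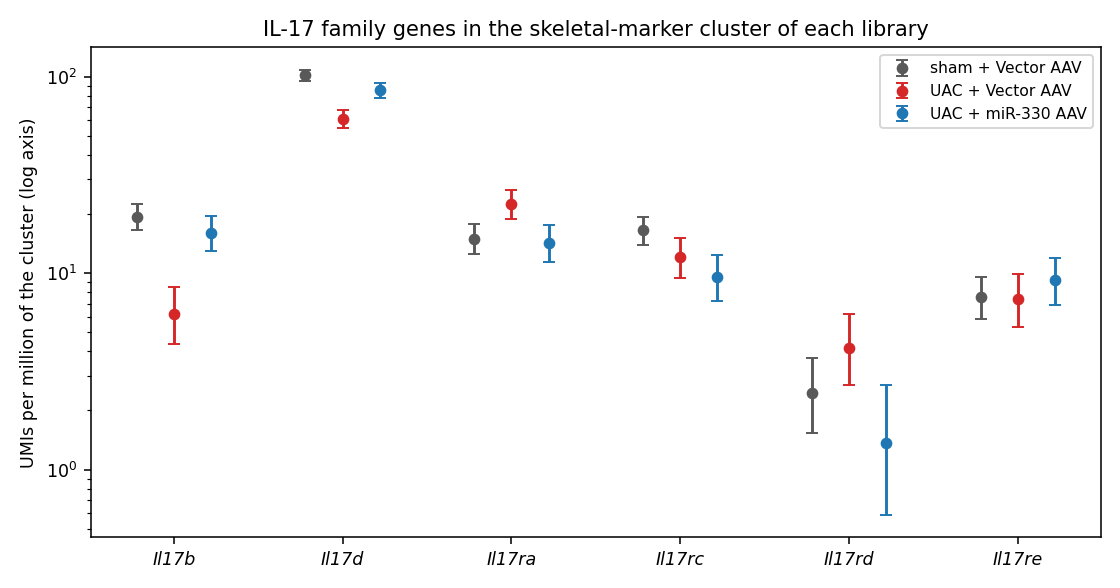
Levels of 6 IL-17 family genes in the skeletal-marker cluster of each library, in CPM of the cluster (log axis), with exact Poisson 95% intervals. Il17b reads 19.4, 6.19 and 16.0 in sham, UAC and UAC + miR-330, and Il17rc reads 16.5, 12.0 and 9.52.

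Among the receptors, Il17ra (ENSRNOG00000011153), the shared signalling chain, had 10424 (sham), 14347 (UAC) and 16215 (UAC + miR-330) UMIs, and at least 1 UMI in every one of the 52 clusters. Its whole-library level was 134 CPM (132 to 137), 155 CPM (152 to 157) and 167 CPM (164 to 169). The levels followed the order sham, UAC, UAC + miR-330 with small steps, log2 ratios of 0.21 (0.17 to 0.24) for UAC to sham and 0.11 (0.07 to 0.14) for UAC + miR-330 to UAC. Over all genes with at least 20 UMIs the median was -0.02 and 0.13, so the second ratio was not above the median gene. Intervals lay apart for 46.9% and 55.5% of all genes in these whole-library comparisons, at this depth a common event.

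Across clusters Il17ra was highest in neutrophil-like clusters. In sham it was 492 CPM (467 to 517) in cluster 8, followed by the macrophage-like cluster 15 at 230 CPM (214 to 247) and the neutrophil-like cluster 10 at 209 CPM (196 to 222). In UAC the neutrophil-like clusters 8 and 7 stood at 556 CPM (525 to 588) and 441 CPM (421 to 461), and the macrophage-like cluster 9 at 251 CPM (238 to 264) was next to the neutrophil-like cluster 12 at 241 CPM (227 to 255). In UAC + miR-330 the neutrophil-like clusters 6, 15 and 9 stood at 755 CPM (720 to 790), 589 CPM (558 to 622) and 339 CPM (324 to 354), above the macrophage-like cluster 10 at 272 CPM (259 to 286). Clusters named neutrophil-like and macrophage-like thus took the upper places in every library. This did not hold for all clusters with granulocyte markers. The unnamed UAC cluster 18, with 4 of 10 neutrophil markers enriched, stood at 144 CPM (132 to 158). The UAC + miR-330 cluster 18, named from early granulocyte markers, stood at 147 CPM (135 to 160).

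B-like clusters formed a narrow middle band, from 118 to 190 CPM in sham, 133 to 169 CPM in UAC and 132 to 172 CPM in UAC + miR-330. The T/NK-like clusters, where Il17a was found in UAC, stood below it at 70.3 CPM (59.6 to 82.3) in UAC and 74.6 CPM (63.9 to 86.5) in UAC + miR-330, near the erythroid-like clusters at 71.7 and 80.1 CPM. The skeletal-marker cluster was the lowest in each library, at 15.0 CPM (12.5 to 17.7) in sham, 22.4 CPM (18.8 to 26.5) in UAC and 14.3 CPM (11.4 to 17.7) in UAC + miR-330. The highest cluster was 32.8, 24.8 and 52.9 times the lowest in the 3 libraries. Of the neighbours in this order, 10 pairs among the 15 sham clusters, 11 among the 18 UAC clusters and 11 among the 19 UAC + miR-330 clusters had overlapping intervals, most of them in the middle band.

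**Figure D3:**
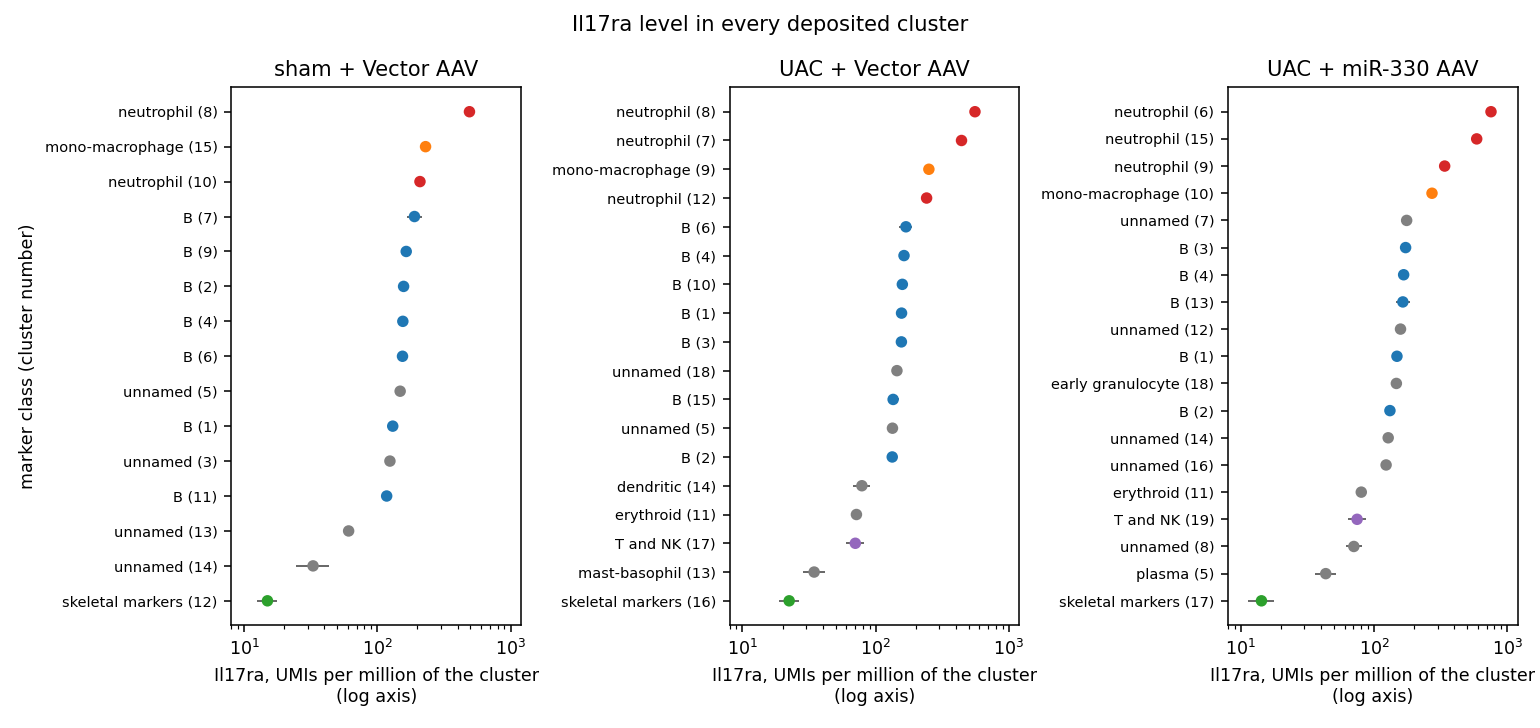
Il17ra in every cluster of the 3 libraries, in CPM of the cluster (log axis), sorted by level, with exact Poisson 95% intervals (often smaller than the point) and cluster numbers in brackets. Neutrophil-like clusters (red) are highest at 492, 556 and 755 CPM, and skeletal-marker clusters (green) are lowest at 15.0, 22.4 and 14.3 CPM.

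Within the same class, Il17ra summed over neutrophil-like clusters stood at 319 CPM (307 to 332) in sham (clusters 8 and 10), 380 CPM (368 to 391) in UAC (clusters 7, 8 and 12) and 490 CPM (476 to 503) in UAC + miR-330 (clusters 6, 9 and 15). The log2 ratios were 0.25 (0.18 to 0.32) and 0.37 (0.31 to 0.43), inside 2-fold, and different clusters made up the class in each library. In the macrophage-like clusters the ratios were 0.12 (-0.003 to 0.25) and 0.12 (0.02 to 0.22). In the T/NK-like clusters UAC + miR-330 over UAC gave 0.08 (-0.24 to 0.41), not a detectable difference at this depth, where 8.3% of 9189 genes were past 2-fold, 23.9% had intervals apart and the median was 0.19. In the skeletal-marker clusters the ratios were 0.58 (0.23 to 0.94) and -0.65 (-1.06 to -0.25), so the UAC value was the highest there. Neutrophil markers, in whose clusters Il17ra was highest, were also most abundant in the UAC skeletal-marker cluster: the 10 genes summed to 1247, 4376 and 865 CPM in the order sham, UAC, UAC + miR-330, with S100a9, S100a9 and S100a8 the most abundant and Ltf at 0 in the first and last. Their part in the Il17ra values was not tested.

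Il17rc (ENSRNOG00000027376), the chain that pairs with IL-17RA to bind IL-17A and IL-17F, had 156, 79 and 61 UMIs in sham, UAC and UAC + miR-330. Of these, 95.5% (91.0% to 98.2%), 91.1% (82.6% to 96.4%) and 91.8% (81.9% to 97.3%) lay in the skeletal-marker clusters. Its level there was 16.5 CPM (14.0 to 19.4), 12.0 CPM (9.42 to 15.2) and 9.52 CPM (7.19 to 12.4), and the other clusters held 7, 7 and 5 UMIs in all. Thus the skeletal-marker clusters, lowest for Il17ra, held nearly all Il17rc, and the T/NK-like clusters held 0 and 1 UMIs of it.

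For Il17rc the whole-library log2 ratio was -1.23 (-1.65 to -0.84) for UAC to sham and -0.44 (-0.95 to 0.06) for UAC + miR-330 to UAC. Within the skeletal-marker clusters it was -0.45 (-0.88 to -0.04) and -0.34 (-0.87 to 0.18), inside 2-fold in both, where the intervals of the compared libraries overlapped. From sham to UAC + miR-330 it was -0.79 (-1.27 to -0.34), with intervals apart. The share of all genes with intervals apart was not computed for that comparison. For UAC to sham and for UAC + miR-330 to UAC in these clusters it was 21.8% and 25%. The whole-library value of UAC to sham went with the smaller share of UMIs in the skeletal-marker cluster, and the summed chondrocyte markers of the whole libraries were 7575, 3357 and 4121 CPM. Fewer cells of a type and less RNA per cell cannot be told apart in these sums.

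Taking whole libraries, 2 of the 3 members with a row in both (Il17b and Il17rc) were at or past 2-fold lower in UAC than in sham, where 5.74% of 15638 genes were past 2-fold either way. From UAC to UAC + miR-330, 1 of 3 (Il17b) was past 2-fold, where 4.88% of 15912 genes were. Over all 7 family genes with enough UMIs, 1 was higher and 3 lower in UAC than in sham, and 1 was higher and 0 lower in UAC + miR-330 than in UAC.

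The remaining receptors divided between these patterns. Il17rb, the receptor of IL-17B and IL-25, had 10, 45 and 41 UMIs in sham, UAC and UAC + miR-330, and 38 and 35 of the last 2 lay in the T/NK-like clusters, at 17.3 CPM (12.3 to 23.8) and 15.1 CPM (10.5 to 21.0). The skeletal-marker clusters, where Il17b lay, held 0, 0 and 1 Il17rb UMIs. In the sham library, without a T/NK-like cluster, 7 of the 10 were in the B-like cluster 11, in which 3 T markers were also enriched. So most UMIs of Il17b and most of Il17rb lay in different clusters in each library.

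Il17re, a receptor chain known to pair with IL-17RA for IL-17C, had 72, 49 and 61 UMIs, with 94.4%, 89.8% and 88.5% of them in the skeletal-marker clusters at 7.54, 7.36 and 9.18 CPM, and overlapping intervals. Il17re and Il17rc are neighbours in the RefSeq assembly GRCr8, with 0 annotated genes between them and 742 bases from the end of 1 to the start of the other. Il17a and Il17f are 42200 bases apart there, with 2 annotated genes, among them a pseudogene, between them. How reads over neighbouring genes were counted is not given in the sources used here, so reads shared between Il17re and Il17rc cannot be told apart. Il17rd, a receptor-like gene also known as Sef, was spread more widely, with 115, 140 and 156 UMIs over 11, 15 and 15 clusters and log2 ratios of 0.03 (-0.34 to 0.40) and 0.09 (-0.25 to 0.43). In the skeletal-marker clusters it had 22, 25 and 8 UMIs, with a log2 ratio of -1.56 (-2.98 to -0.43) from UAC to UAC + miR-330. Il17rel had no row in any table.

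Traf3ip2, which encodes the adaptor Act1 that IL-17 receptors need to signal, had 713, 748 and 929 UMIs. Its highest cluster was B-like in sham, cluster 7 at 18.5 CPM (12.0 to 27.3), and T/NK-like in the others, at 29.2 CPM (22.5 to 37.3) in UAC and 35.8 CPM (28.5 to 44.3) in UAC + miR-330. The sham value overlapped that of the next cluster, the B-like cluster 1 at 17.9 CPM (14.8 to 21.6), and the UAC + miR-330 value that of the unnamed cluster 8 at 28.4 CPM (22.8 to 35.0), while the UAC value lay apart from the next. In the neutrophil-like clusters, the highest for Il17ra, it stood at 0.897, 0.438 and 0.0968 CPM in sham, UAC and UAC + miR-330, and in the skeletal-marker clusters at 2.11, 3.68 and 2.55 CPM. Over the 52 clusters the Pearson r of Il17ra with Traf3ip2 was -0.33, and of Il17ra with Il17rc -0.64, while Il17b and Il17rc had 0.94. These correlations are across clusters of 3 libraries that differ in depth, and clusters are not independent replicates.

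By the same measure (Pearson r of log2(CPM + 1) over clusters, among genes with at least 100 UMIs) the 5 genes most like each member were named. For Il17a, over the 18 UAC clusters, they were Gzma, Ly49s5, Ccl5, Art2b and Gzmk, with r from 0.985 to 0.997. Il17b was closest to Myoz3, Rd3l, AABR07021591.1, Pcdh20 and AABR07043892.1, with r from 0.976 to 0.979 over 52 clusters. For Il17rc they were Chadl, Notum, Nol3, Calb2 and Kcna6, at 0.966 to 0.970. For Il17ra they were Prr13, Skap2, Lrch4, Nceh1 and Eaf1, at 0.921 to 0.945. Each of the first 3 sets follows 1 cluster per library, so many genes of that cluster come close to these values.

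Turning to the signal genes downstream, 35 of 36 adaptors and signal genes had enough UMIs in whole libraries, and 0 of them were past 2-fold in either comparison (all genes 5.74% and 4.88%). Their median log2 ratio was 0.17 for UAC to sham (all genes -0.02) and 0.10 for UAC + miR-330 to UAC (all genes 0.13). The most abundant were Hsp90ab1, Jund, Nfkb1 and Nfkbia. Nfkb1, an NF-κB subunit, stood at 535, 694 and 768 CPM in sham, UAC and UAC + miR-330, and Nfkbia, its inhibitor, at 408, 467 and 362 CPM. The transcription factor Cebpb, an early IL-17 response gene, had the largest ratio of the list for UAC to sham, 0.70, with 269, 438 and 305 CPM. For UAC + miR-330 to UAC, Tab3 (0.82), Tnfaip3 (0.62) and Usp25 (0.57) were the highest and Traf4 (-0.62), Cebpb (-0.53) and Cebpd (-0.45) the lowest.

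In the skeletal-marker clusters 2 of 34 signal genes were past 2-fold higher in UAC than in sham (Tnfaip3, which encodes the feedback inhibitor A20, at 1.35, and Tab3 at 1.12) and 1 was lower (Usp18, -1.89), where 5.52% of all genes were past 2-fold. From UAC to UAC + miR-330, 0 of 33 were past 2-fold higher and 3 were lower, Fosl1 (-1.19), Cebpb (-1.13) and Cebpd (-1.09), where 6.8% of all genes were. The medians were 0.27 and -0.23. In the same clusters the neutrophil markers summed to 1247, 4376 and 865 CPM in sham, UAC and UAC + miR-330. Their part in the ratios of the signal genes was not tested. Between the T/NK-like clusters 1 of 34 was past 2-fold (all genes 8.3%), Tnfaip3 at 1.01.

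Of 24 genes known to be induced by IL-17 with enough UMIs in whole libraries, 6 were past 2-fold higher and 0 lower in UAC than in sham (all genes 5.74% either way), with a median log2 ratio of 0.69. Of 26, 0 were higher and 6 lower in UAC + miR-330 than in UAC (all genes 4.88%), with a median of -0.39. The chemokine Cxcl1, which attracts neutrophils, stood at 13.9, 38.6 and 8.50 CPM in sham, UAC and UAC + miR-330. The cytokine Il6 had 59, 75 and 24 UMIs, or 0.760, 0.810 and 0.247 CPM, and Cxcl10 had the largest ratio of UAC to sham, 2.70. The most abundant genes of the list were S100a9, S100a8, Lcn2 and Sod2, and S100a9, a neutrophil protein, stood at 20766, 33370 and 23125 CPM. Of the 30 induced genes 4 are also markers of neutrophils or osteoclasts (Lcn2, Mmp9, S100a8 and S100a9). Without these 4, the counts were 6 higher and 0 lower of 20 for UAC to sham. For UAC + miR-330 to UAC they were 0 higher and 6 lower of 22, and the medians were 0.70 and -0.39. The 10 neutrophil markers summed to 41267, 63831 and 44870 CPM over the whole libraries, with S100a9 the most abundant in each and none at 0. The part of neutrophil RNA in the induced genes was not tested.

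In the skeletal-marker clusters, which held Il17rc, 9 of 19 induced genes were past 2-fold higher in UAC than in sham and 0 lower (all genes 5.52% either way), with a median of 0.76 against 0.15 over all genes. From UAC to UAC + miR-330, 0 of 18 were past 2-fold higher and 8 lower (all genes 6.8%), with a median of -0.84 against 0.01. Cxcl1 stood at 9.09, 55.5 and 6.63 CPM there. Mmp3, a matrix protease gene, had 4, 24 and 30 UMIs in the same order, lowest in sham, with a log2 ratio of 0.34 (-0.48 to 1.18) from UAC to UAC + miR-330. Without the 4 shared marker genes the counts were 6 higher of 15 and 4 lower of 14, with medians of 0.50 and -0.72. The neutrophil marker sums of these clusters, given with Il17ra, had the same order of libraries, and their part in the induced genes was not tested. Between the T/NK-like clusters 3 of 12 induced genes were past 2-fold higher in UAC + miR-330 (Ccl2 5.27, Ptgs2 4.35 and Cxcl10 1.54) and 3 lower (Mmp9 -1.63, S100a9 -1.56 and S100a8 -1.29), against 8.3% of all genes. These 3 lower genes are among the 4 shared markers, and without the 4 the counts were 3 higher and 0 lower of 8. The 10 neutrophil markers summed to 4141 CPM in the UAC T/NK-like cluster and 1521 CPM in that of UAC + miR-330, with S100a9 the most abundant in both and 0 and 1 (Ltf) at 0. The mast cell and basophil markers, at 24.7 and 1698 CPM in the same clusters (0 and 6 of 7 enriched), had the opposite order, and the part of both lists in these ratios and in the type 17 ratios of these clusters below was not tested.

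Genes of type 17 lymphocytes, the cells known to make IL-17A, were listed in part, with a row for 22, 23 and 22 of 29. Il22, Il7r, Cd163l1, Trdc and Trgc2 had no row in any table. Il23r, a receptor chain that sustains these cells, had 10, 26 and 36 UMIs, with 8, 9 and 13 of them in the skeletal-marker clusters and 12 and 8 of the last 2 in the T/NK-like clusters. In UAC + miR-330 another 13 lay in the erythroid-like cluster 11. Of 22 genes with enough UMIs in whole libraries 7 were past 2-fold higher and 1 lower in UAC than in sham (all genes 5.74% either way), led by Il2ra (2.18), Cxcr6 (1.96) and Icos (1.57), with Kcnk1 (-1.07) the lowest, and 0 were past 2-fold from UAC to UAC + miR-330 (all genes 4.88%). Between the T/NK-like clusters 4 of 16 were higher and 0 lower in UAC + miR-330, against 8.3% of all genes either way and with the mast cell and basophil markers also higher there, as given above. The largest ratios were those of Serpinb1a (1.49), Ahr (1.23) and Ccr6 (1.23), and the lowest those of Batf (-0.70, -1.02 to -0.39), Blk (-0.68, -1.61 to 0.19) and Il23r (-0.64, -2.16 to 0.74). Rora, a nuclear receptor gene, was at 707 CPM in UAC and 1017 CPM in UAC + miR-330. The median of the list was 0.20, against 0.19 over all genes.

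Other T and NK genes were past 2-fold higher in UAC than in sham for 18 of 28 (all genes 5.74% either way), with a median of 1.55, led by Gzma (3.50), Klrd1 (2.66) and Cd28 (2.66), and for 0 of 28 from UAC to UAC + miR-330 (all genes 4.88%). Cytokines known to act on type 17 cells had 0 of 8 past 2-fold from sham to UAC, with the same 5.74% of all genes as above. From UAC to UAC + miR-330, 2 of 8 were past 2-fold lower beside 4.88% of all genes, Il6 (-1.69) and Il1a (-1.37). Il1b, the most abundant of the inflammatory ones, stood at 89.2, 147 and 111 CPM, and Il23a had 38, 27 and 17 UMIs.

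The agent of the third group was miR-330, and both mature arms of the rat miRNA are shown since the labels name no arm. They are from RefSeq (GRCr8), 5′ to 3′, with the seed (bases 2 to 8) in capitals. rno-miR-330-5p lies at chr1:87961227-87961248 and rno-miR-330-3p at chr1:87961266-87961288, both on the + strand.
rno-miR-330-5p: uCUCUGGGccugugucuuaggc
rno-miR-330-3p: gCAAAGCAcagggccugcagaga
The arms have different seeds, and matches of the seeds to IL-17 family transcripts were not analysed here.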

How the data were processed

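Single-cell RNA of 3 libraries, 1 per group, was analysed from the authors' deposited tables of graph-based clusters. Each table gives a mean count, a log2 fold change against other clusters and an adjusted p-value for every gene and cluster. As signal, the authors' deposited mean counts served, which are scaled within each cluster. The log2 fold changes and p-values hold the authors' own comparisons of clusters and were not used. The submitters' processing notes name Cell Ranger 7.0, STAR and Seurat 4.0.1. They name builds of human and mouse, while the gene identifiers are of rat, so these builds were not used.

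Each mean was divided by the smallest positive mean of its column. In all libraries 100% of the values came out whole within 1.0e-07, which gave UMIs. Names on more than 1 identifier (101, 106 and 116 in sham, UAC and UAC + miR-330) had their UMIs added. The smallest cluster held 1352666 UMIs.

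A cluster took the class with the largest share of its markers enriched (at least 10 UMIs, log2 ratio of at least 1 against the other clusters, at least 50 CPM and at least 3 genes). It stayed unnamed if its 10 leading genes held more markers of another class. Joining chondrocyte, osteogenic and fibroblast markers, and T with NK markers, was settled after the tables were seen. The design assumed a T cluster in every library. Doublets and free RNA cannot be treated in cluster sums, and cells per cluster are not known.

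Log2 ratios had 0.5 UMI added to each count, and their exact conditional binomial 95% intervals had none. The floor of a count of 0 was 3 UMIs. With 1 library per group no test between conditions was made and a count model was not run. Genes with at least 20 UMIs over both libraries were counted as past the fold at 2-fold.

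The named genes were every IL-17 ligand and receptor, up to 4 genes of each list with the most UMIs and up to 3 with the largest changes each way, the 5 genes most like Il17a, Il17b, Il17ra and Il17rc, and the cluster markers. Genes of the T/NK-like distribution, Traf3ip2 across clusters, and Mmp3 and Il23r across libraries were chosen after their values were seen. The members and lists were chosen with earlier results of these data known. The alternatives were the deposited mean counts as they stand, CPM without mitochondrial, ribosomal, haemoglobin and immunoglobulin genes, 5 UMIs added, levels per 1000 UMIs of reference genes, other count minimums and folds, and Spearman correlation. Steps were tested on simulated data. Python 3.11.15, numpy 2.4.6, pandas 2.3.3, scipy 1.17.1 and matplotlib 3.10.9 were used.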

Additional observations from a re-analysis of the deposited data

How the results depend on the processing

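No paired analysis was possible because each group had 1 library and no result comes from a test. In all, 260 alternative values of 73 results were computed. Of these, 216 moved by less than their counting interval or stayed within the set range, and 42 moved further. The other 2 changed sign from a main value whose interval lay apart from 0. Where the main interval held 0, a change of sign was not counted separately. Il17re of UAC to sham in the skeletal-marker clusters, for example, went from -0.03 to 0.17 on the deposited mean counts. Adding 5 UMIs, or using the identifier with the most UMIs only, moved none of 47 ratios beyond its interval. The cause of the changes below was not tested, except that the deposited mean counts differ from CPM by a constant per library, a log2 shift of 0.20 for UAC to sham, 0.24 for UAC + miR-330 to UAC and 0.43 for UAC + miR-330 to sham.

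On the deposited mean counts, the Il17ra log2 ratio of UAC to sham was 0.40 in whole libraries, 0.32 in macrophage-like and 0.44 in neutrophil-like clusters, and that of UAC + miR-330 to UAC was 0.34, 0.35 and 0.60. For UAC + miR-330 to sham, Il17ra was 0.74, 0.67 and 1.05 in the same places and 0.37 in the skeletal-marker clusters (main values 0.31, 0.24, 0.62 and -0.07). On that scale Il17b of UAC + miR-330 to sham was -0.80 in whole libraries and 0.15 in the skeletal-marker clusters (main -1.23 and -0.28), Il17rc was -1.24 in whole libraries (main -1.67), and Il17d in the skeletal-marker clusters changed sign to 0.17 (main -0.26). Without mitochondrial, ribosomal, haemoglobin and immunoglobulin genes (19.05%, 17.6% and 15.7% of UMIs in sham, UAC and UAC + miR-330), the whole-library Il17ra ratio was 0.0734 for UAC + miR-330 to UAC and 0.26 for UAC + miR-330 to sham. Per 1000 UMIs of Sox9, Acan and Comp in whole libraries, the Il17b ratio was -1.44 for UAC to sham and changed sign to 0.0064 for UAC + miR-330 to sham. Against Sox9 or Acan alone, levels chosen after seeing the data, Il17b was lower in UAC + miR-330 than in sham (31.1 against 54.5 and 8.11 against 11.9 per 1000), and against Comp alone higher (3.44 against 2.91). The lower Il17b of UAC against sham, and the higher value of UAC + miR-330 against UAC, kept their direction under all of these scales, in whole libraries and in the skeletal-marker clusters.

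The share of genes past the fold changed with every other rule. At 100 UMIs or more it was 3.58% for UAC to sham and 2.58% for UAC + miR-330 to UAC in whole libraries, 2.29% and 3.36% in the skeletal-marker clusters and 3.73% in the T/NK-like clusters. At 1 UMI or more the same 5 shares were 8.96%, 8.48%, 16.9%, 21.6% and 27.2%, at 1.5-fold they were 15.6%, 17.8%, 16.6%, 20.3% and 26.2%, and for Poisson intervals that did not overlap 46.9%, 55.5%, 21.8%, 24.96% and 23.9%. The list medians moved by less than the spread of their genes, also without the 4 marker genes in the induced list, an alternative chosen after seeing the data.

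The planned Il17a ratios in the T/NK-like cluster, on every scale, gave no value, since Il17a has a row in 1 library. The ratio to Cd3e alone was chosen after seeing the data. Of the 5 genes most like each member by Pearson r, 2 were also among the 5 by Spearman rho for Il17ra and 0 for Il17a, Il17b and Il17rc. Within sham, UAC and UAC + miR-330 alone, 2, 4 and 2 of the 5 stayed for Il17ra, 0, 0 and 1 for Il17b and 0, 1 and 1 for Il17rc. Depth limits Il17f, Il25 and Il17rb, with at most 45 UMIs in a library.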
